A study of Mus musculus with 4 samples.

Results

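The genes described here are 10 skeletal muscle genes, chosen by name: the myogenic regulatory factors Myod1, Myf5, Myf6 and Myog, the myosin heavy chains Myh1, Myh2 and Myh3, and the products Acta1, Actn3 and Mylpf. All 10 were matched by symbol among 21887 protein-coding genes of RefSeq's GRCm38.p6 annotation, the assembly behind mm10. Accessible DNA around them was read from 4 ATAC-seq libraries of wild-type (wt) mouse lung at E15.5, replicates 1 to 4 of 1 group, each given as its own list of peaks. ATAC-seq marks DNA into which the Tn5 transposase can insert. The labels name no transgene, treatment or strain, and do not say whether replicates were separate embryos, so the SDs below may hold technical variation alone. With a single group there was no contrast between conditions to test, and counts of genes are set beside the same count over all protein-coding genes.

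The 4 myogenic regulatory factors are basic helix-loop-helix proteins that bind E-box DNA and switch cells into the skeletal muscle lineage. Myod1 and Myf5 act in determination, Myog in terminal differentiation, and Myf6 (also called MRF4) in both steps at different times. Myosin heavy chains are the motors of the thick filament; Acta1 encodes skeletal alpha-actin of the thin filament, Actn3 the alpha-actinin of fast-fibre Z-discs, and Mylpf the regulatory light chain of fast fibres. Skeletal muscle is not a cell type of the lung itself, where contractile cells are smooth muscle and, around pulmonary veins, cardiac muscle. In a whole organ, fewer cells of a type and less open DNA per cell cannot be told apart.

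The lists held 134503 to 211678 peaks on the assembled chromosomes. Replicate 1, whose peak names carry the French word for fresh where the other lists say frozen, had the fewest peaks and a median fold enrichment of 8.99, against 3.73 to 3.90 in replicates 2 to 4. That name conflicts with the labels, whose protocol describes frozen lungs for every sample, and the sources used here do not settle which holds. Fold, the authors' enrichment of a peak summit over background, was therefore turned into a percentile within each library. As a check of the labelled tissue, all 10 lung genes examined, among them Nkx2-1, Foxa2, Foxf1, Tbx4 and Hoxa5, had a peak within 1 kb of the gene start in every library. Of all protein-coding genes, 66.9% did. For Sftpc, Sox9, Foxf1 and Tbx5 no start was known, so either gene end counted. The Sftpc peak had its summit within 1 kb of the start of the neighbouring Bmp1, and those of Tbx4, Tbx5 and Wnt2 reached the window without a summit in it.

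Promoter sequences of RefSeq's GRCm38.p6 table, from 250 bases before to 50 after the gene start, are shown for 3 muscle genes and for the 2 neighbouring genes whose starts carried the strongest peaks at Mylpf and Actn3. They are printed 5′ to 3′ on the gene's strand. In the muscle promoters, capitals mark E-boxes (CANNTG, read on both strands). In the neighbours' promoters, capitals mark CG dinucleotides, which are dense in promoters that are open in many tissues.
Myog, chr1:134289754-134290053, plus strand: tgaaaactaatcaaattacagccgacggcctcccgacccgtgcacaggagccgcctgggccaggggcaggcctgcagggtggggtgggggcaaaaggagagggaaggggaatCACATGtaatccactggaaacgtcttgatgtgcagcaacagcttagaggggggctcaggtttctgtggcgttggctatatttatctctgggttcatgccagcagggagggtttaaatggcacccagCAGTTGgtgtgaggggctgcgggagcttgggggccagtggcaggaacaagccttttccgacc
Acta1, chr8:123894726-123895025, minus strand: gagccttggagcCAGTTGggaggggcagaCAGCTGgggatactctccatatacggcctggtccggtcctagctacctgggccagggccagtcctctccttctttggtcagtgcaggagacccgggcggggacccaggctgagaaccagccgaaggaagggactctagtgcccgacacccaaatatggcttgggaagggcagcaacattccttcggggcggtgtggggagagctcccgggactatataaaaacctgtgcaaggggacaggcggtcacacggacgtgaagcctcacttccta
Mylpf, chr7:127211358-127211657, plus strand: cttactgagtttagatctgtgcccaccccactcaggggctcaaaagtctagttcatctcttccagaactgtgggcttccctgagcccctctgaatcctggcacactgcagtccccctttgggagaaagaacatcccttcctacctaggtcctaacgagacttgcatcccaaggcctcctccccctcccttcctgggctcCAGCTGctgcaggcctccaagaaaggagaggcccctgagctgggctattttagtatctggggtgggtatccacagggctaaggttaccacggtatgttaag
Tbc1d10b, chr7:127208419-127208718, minus strand: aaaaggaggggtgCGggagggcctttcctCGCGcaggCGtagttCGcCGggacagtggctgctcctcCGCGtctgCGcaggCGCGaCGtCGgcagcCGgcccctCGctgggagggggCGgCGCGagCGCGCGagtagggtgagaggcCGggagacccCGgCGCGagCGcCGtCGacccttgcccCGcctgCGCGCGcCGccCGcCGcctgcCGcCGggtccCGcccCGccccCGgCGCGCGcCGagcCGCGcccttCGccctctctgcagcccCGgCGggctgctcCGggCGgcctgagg
Zdhhc24, chr19:4878418-4878717, plus strand: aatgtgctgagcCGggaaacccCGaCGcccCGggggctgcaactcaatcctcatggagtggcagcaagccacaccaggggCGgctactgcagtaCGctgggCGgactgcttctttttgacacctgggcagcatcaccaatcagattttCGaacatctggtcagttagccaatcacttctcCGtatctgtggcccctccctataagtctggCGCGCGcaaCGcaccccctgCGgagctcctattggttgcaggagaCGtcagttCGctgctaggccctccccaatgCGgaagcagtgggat

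The table gave a promoter, and so a strand, for 7 of the 10 genes; Myod1, Myf6 and Actn3 had no entry. The Mylpf promoter held 2 CG dinucleotides in 300 bases and the neighbouring Tbc1d10b promoter held 51. The Zdhhc24 promoter, beside Actn3, held 17, against a median of 13 over all promoters. The ratio of observed to expected CG was 0.09 at Mylpf, 0.16 at Myf5, 0.23 at Myh3, 0.28 at Myh1, 0.37 at Myog, 0.43 at Acta1 and 0.68 at Myh2, against a median of 0.56 over 17492 protein-coding promoters. Myh2 was thus the one member above the median. Of the neighbours, Tbc1d10b had a ratio of 1.05, with 95.3% of promoters below it. Zdhhc24 had 0.65, near the median, with 56.1% below it. The E-box CANNTG occurred in 4 of the 7 muscle promoters and in 69.0% of all promoters, and its form CAGCTG in 2 of 7 (Acta1 and Mylpf), against 15.3% of all. The letters TATAAA occurred in 5 of 7 (Myf5, Myh1, Myh2, Myh3 and Acta1), against 13.3% of all. A CArG box, the sequence bound by SRF, was found in the Acta1 promoter alone of the 7 (1.51% of all promoters). A MEF2 site was searched only as YTAWWWWTAR (Y is C or T, W is A or T, R is A or G). That exact form occurred in the Myh1 promoter alone of the 7 (2.89% of all promoters). The Myog promoter printed above holds CTATATTTAT, which departs from that form in its last letter only and was not counted. These matches describe letters in a window and are not binding sites shown to be used.

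None of the 7 genes with a known start had a peak within 1 kb of it in every library, whereas 66.6% of the 17492 genes with a known start did. Requiring the summit itself to lie in that window gave 60.9% of all genes and none of the 7. Among the 8623 genes whose promoter CG ratio lay within the members' range of 0.09 to 0.68, a comparison added after the values were seen, 52.5% had a peak in every library and 46.3% a summit. For the other 3 genes both annotated ends had to stand in for the start, and Myod1, Myf6 and Actn3 each had a peak in every library there, as did 68.2% of genes without a known start. By this mixed rule 3 of 10 members were called, against 66.9% of all genes. The count became 6 of 10 with windows of 2.5 kb (69.9% of all genes) and 5 of 10 when 3 libraries were enough (70.7%). At either annotated end, the 3′ end included, 6 of 10 members had a peak in every library (Myod1, Myf6, Myog, Acta1, Actn3 and Mylpf) and 66.7% of all genes did. With only peaks of −log10 q of 5 or more the 6 fell to 3, which were Myf6, Actn3 and Mylpf, and the background to 63.7%. The share at either end was close to the background; what differed among the 6 was the place and strength of the peaks.

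**Figure D1:**
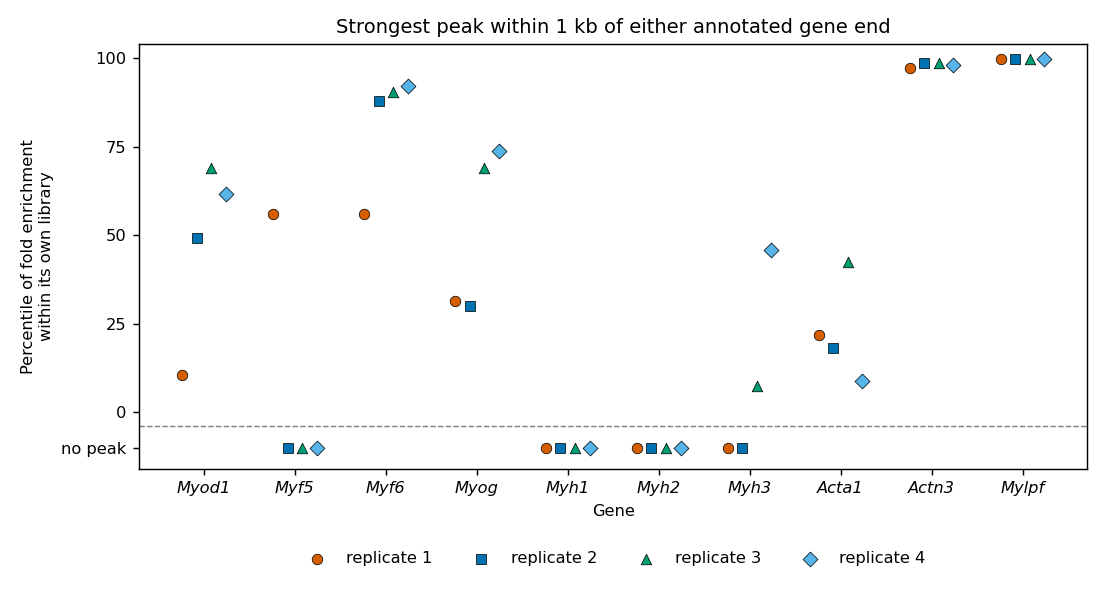
Percentile of fold, within its own library, of the strongest peak within 1 kb of either annotated end of each gene, 1 point per library, with libraries lacking such a peak below the dashed line. Mylpf and Actn3 sit above the 97th percentile in all 4 libraries, Myf6 between 55.9 and 92.2, and Myh1 and Myh2 have no peak.

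Ordered by mean percentile over the 4 libraries, the 6 genes were Mylpf at 99.8 ± 0.046 (SD, n = 4 libraries here and below), Actn3 at 98.1 ± 0.62, Myf6 at 81.5 ± 17.2, Myog at 51.1 ± 23.6, Myod1 at 47.6 ± 26.0 and Acta1 at 22.7 ± 14.2. The ranges of Mylpf and Actn3 did not overlap each other or those of the other genes. Myf6, Myog and Myod1 overlapped, as did Myog, Myod1 and Acta1.

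The peak at Mylpf was among the strongest of the data set. It ranked 158th of all peaks in replicate 1 and 327th, 383rd and 441st in replicates 2, 3 and 4, at folds of 386, 107, 91.4 and 93.4. Its summits fell within 47 bp of each other, and lay 451 to 498 bp from the start of Tbc1d10b, a gene of the TBC domain family that is read in the opposite direction. They lay 2.64 to 2.69 kb from the Mylpf start of the promoter table, but 71 to 118 bp from the lower annotated end of Mylpf at 127208848, which reaches further upstream than that start. The peak thus fits the neighbour's promoter by position, and it also fits that outermost annotated end of Mylpf. In replicate 1 the peak was 2372 bp wide and did not reach the window around the Mylpf start, and in replicates 2, 3 and 4 it was 5602, 5817 and 4759 bp wide and did. Leaving out replicate 1 therefore called Mylpf open at its start, through a peak centred elsewhere. In replicates 2 and 3 the broad peak also covered the start, which lies 2760 bp from the lower end. It ran to 2934 and 3048 bp from that end. A separate peak spanning the start itself was listed in replicate 4 alone, at the 34.3th percentile.

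The gene-end peak at Actn3 was placed likewise. Its folds were 125.6, 49.7, 39.8 and 36.4 in replicates 1 to 4, at percentiles of 97.2, 98.6, 98.5 and 98.0. The summits lay 34 to 74 bp from a start of Zdhhc24, which encodes a palmitoyltransferase family protein, and 685 to 725 bp outside the higher-coordinate end of Actn3 at 4877909. Inside Actn3 a second shared region, chr19:4864581-4865523, was weaker, at 45.5, 40.6, 72.3 and 70.8. Of the 6 members with a gene-end peak in every library, Mylpf and Actn3 were the ones whose strongest summit was nearer to a neighbour's start, and within 1 kb of it, in all 4 libraries. Over all 14602 genes with such peaks the share was 8.73%. A strongest summit within 1 kb of the gene's own start in every library was found in 2 of the 6, Myf6 and Actn3, where either end stood in for the start, against 76.2% of the 14602 genes. At Myf6 this held for the lower-coordinate end alone and at Actn3 for the higher, and which end is the start was not known. For Mylpf, Myog and Acta1 the RefSeq start alone counted. Their strongest summits lay 71 to 118, 223 to 665 and 146 to 547 bp from an annotated end.

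**Figure D2:**
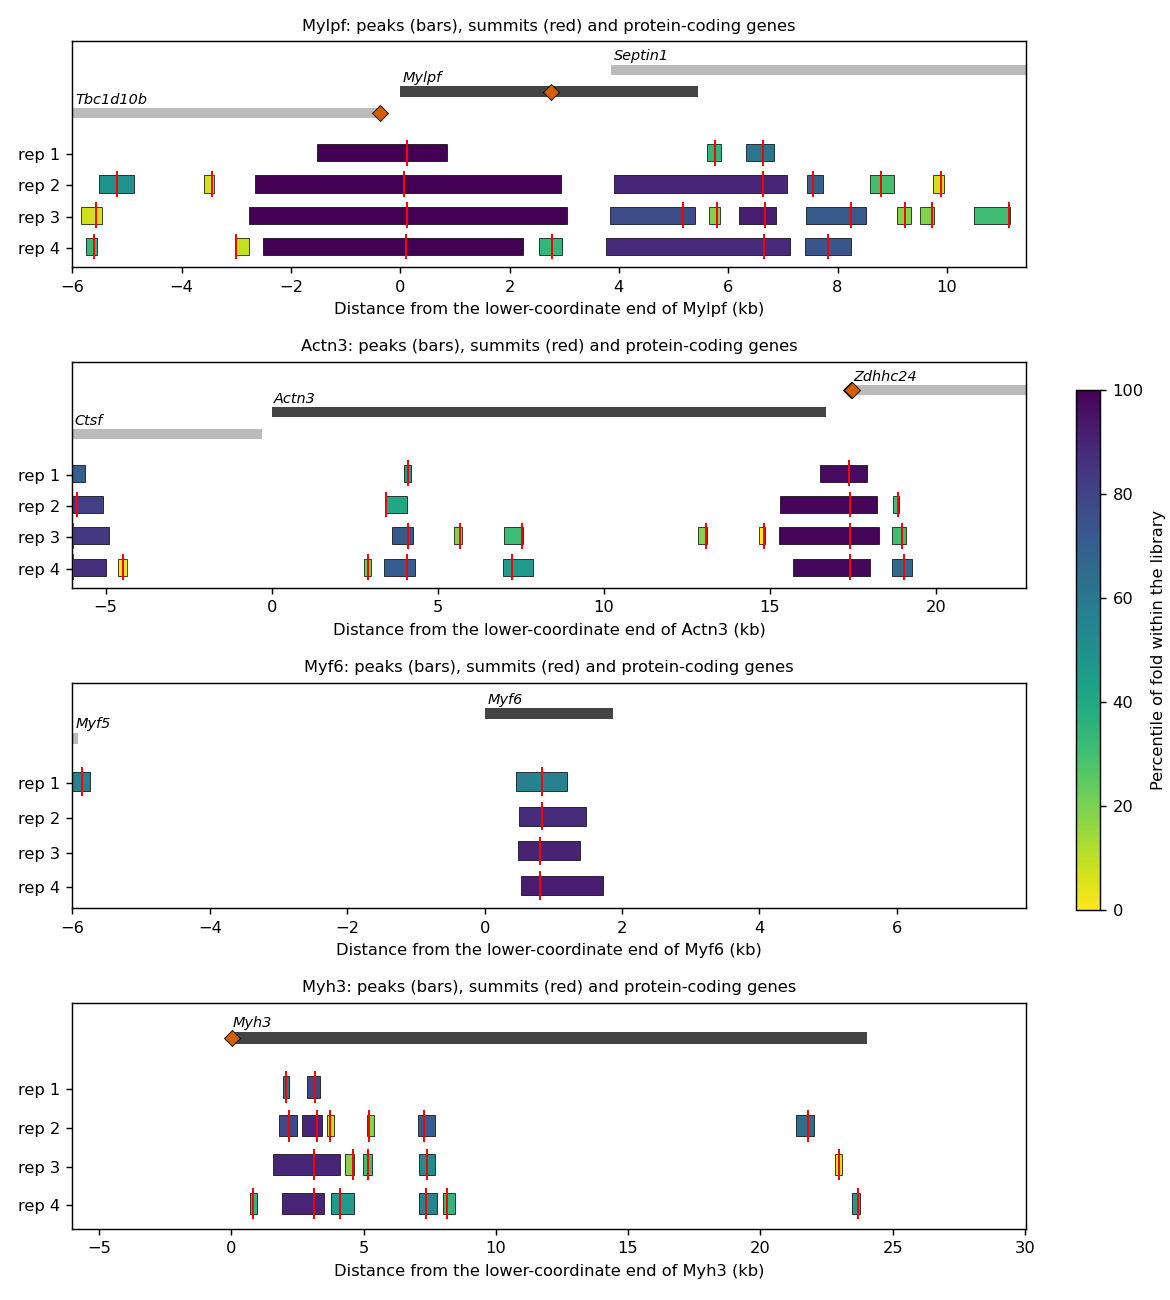
Peaks of each library (bars, coloured by percentile of fold, red lines at summits) against distance in kb from the lower-coordinate end of Mylpf, Actn3, Myf6 and Myh3, with protein-coding genes as grey bars and RefSeq starts as diamonds where the promoter table gives them. Each library's strongest summit lies between the starts of Tbc1d10b and Mylpf in the Mylpf panel, at the start of Zdhhc24 in the Actn3 panel and inside the gene in the Myf6 and Myh3 panels, except that in replicate 1 a peak beside Myf5 has the same fold as that in Myf6. Weaker peaks lie elsewhere in the panels.

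Myf6 differed from these in that no neighbour's start was near. Its peak had folds of 10.3, 10.2, 10.3 and 13.4 in replicates 1 to 4. The folds of replicates 1, 2 and 3 were nearly level, but they ranked at percentiles of 55.9, 87.8 and 90.3, since the median fold of replicate 1 was higher. The higher fold of replicate 4 ranked at 92.2. The shared region, chr10:107493299-107494566, lay inside the 1876 bp gene, with summits 814 to 838 bp from its lower end and within 24 bp of each other. The nearest start of another protein-coding gene was that of Myf5, 7.53 to 7.55 kb away. Myf6 kept its call under all 10 alternatives tried at its ends.

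Myf5, which adjoins Myf6 on chromosome 10, had a peak within 1 kb of its start in 3 libraries and none in replicate 2. In replicate 1 the fold was 10.3 at the 55.9th percentile, 851 bp from the start. That summit lay 58 bp outside the annotated end of Myf5 at 107486927, which reaches further upstream than the start. In replicates 3 and 4 the folds were 3.90 and 3.73 at percentiles of 51.6 and 45.7, 357 and 428 bp from the start. The replicate 1 peak lay apart from those of replicates 3 and 4, and no region inside Myf5 was shared by all 4 libraries. Leaving out replicate 2 called the gene at its start.

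Peaks at Myod1 were weak and scattered. The strongest at its ends had folds of 4.18, 3.87, 4.74 and 4.36, at percentiles of 10.5, 49.3, 68.9 and 61.5, and in replicate 4 the summit lay 1.58 kb from the nearest end, outside the window. A region shared by all 4 libraries, chr7:46376968-46378391, did cover the inside of the gene, at a mean percentile of 39.2 ± 19.8. The call was lost with windows of 0.5 kb or with −log10 q of 5 or more. Myod1 is known to be controlled by a distal regulatory region close before it and by a core enhancer further upstream, and windows of 4.5 to 5.5 kb and 18 to 24 kb were searched for them. Because the tables gave no strand, both sides were searched. None of the 4 libraries had a peak from 4.5 to 5.5 kb on either side, or from 18 to 24 kb on the lower-coordinate side. On the higher-coordinate side the window from 18 to 24 kb was touched by peaks in all 4 libraries, the strongest at percentiles of 85.9, 88.5, 91.2 and 88.7. These belong to a region at the start of the potassium channel gene Kcnc1, with summits 17641 to 17728 bp from Myod1, outside the window.

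Myog had no peak within 1 kb of its start in replicates 1 and 2, and in replicates 3 and 4 it had peaks at the 68.9th and 1.67th percentile. The 2 E-boxes capitalised above thus lay in a promoter whose surroundings had a peak in 2 of 4 libraries. Its gene-end calls in replicates 1, 2 and 4 came from the 3′ part of the gene, with summits 1.88 to 2.32 kb from the start and folds of 6.10, 3.31 and 5.29. A region there, chr1:134291556-134292448, was shared by all 4 libraries, and the nearest neighbour's start, that of Ppfia4, was over 40 kb away. With −log10 q of 5 or more this call was lost. Acta1 was similar: a peak touched its start window in replicate 3 alone, at the 30.9th percentile. Its calls came from the 3′ end, with folds of 5.14, 3.04, 3.62 and 2.80 and summits 2.47 to 3.46 kb from the start. No region inside Acta1 was shared by all 4 libraries, and the gene-end call was lost with −log10 q of 5 or more and with lists of equal length.

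Myh1 and Myh2, the heavy chains of fast fibres, lay in a stretch of 75977 bp without a peak in any library, between peaks ending at 67153473 and starting at 67229451 on chromosome 11. Both genes had 0 peaks within 1 kb or inside, as did 17.3% of all genes and 9.55% of 2533 genes of 20 to 30 kb. Stretches at least as long wholly contained 2400 protein-coding genes, or 11.0%. Myh1 was the member with no shared region within 100 kb, and the one near Myh2 lay inside Myh3. Myh3, the embryonic heavy chain, had a start peak in replicate 4 alone, at the 34.3th percentile, and end peaks in replicates 3 and 4 alone. Within the gene, however, a shared region at chr11:67079843-67082900 had folds of 23.4, 11.6, 9.47 and 10.6 at percentiles of 78.8, 89.4, 89.3 and 89.8. Its summits spanned 123 bp and lay 3.09 to 3.21 kb from the Myh3 start and 28721 to 28844 bp from the nearest other start, that of Sco1. Windows of 2.5 kb reached it and called Myh3.

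The surroundings of Myf5, Myf6, Myh1 and Myh2 were sparse in peaks. Those of the other 6 genes ran from somewhat below the medians over all genes to well above them. From 100 kb before to 100 kb after each gene, replicates 1 to 4 held 5, 4, 3 and 4 peaks around Myh1, and 7, 9, 7 and 9 around Myh2. Around Myf5 they held 6, 4, 5 and 5 peaks and around Myf6 5, 3, 4 and 4, mostly the same DNA. Mylpf had 20, 52, 66 and 54 peaks, and Myog 15, 36, 61 and 57. Per 100 kb searched, the mean ran from 1.78 ± 0.36 at Myh1 to 23.4 ± 9.57 at Mylpf, with Myog at 20.9 ± 10.5, Actn3 at 13.4 ± 5.50 and Myod1 at 12.6 ± 5.76, and every library put Myf5, Myf6, Myh1 and Myh2 below the other 6 genes. The medians over all genes were 6.95, 10.8, 12.8 and 11.6 in replicates 1 to 4. The members' medians were 5.71, 10.6, 12.7 and 11.0. Myh3 also lay below the medians over all genes in every library, at 6.25, 10.3, 10.7 and 10.7. Mylpf had 10 other protein-coding genes within its reach and Actn3 12, against 3 at Myf5, Myf6 and Myod1 and a median of 4 over all genes.

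**Figure D3:**
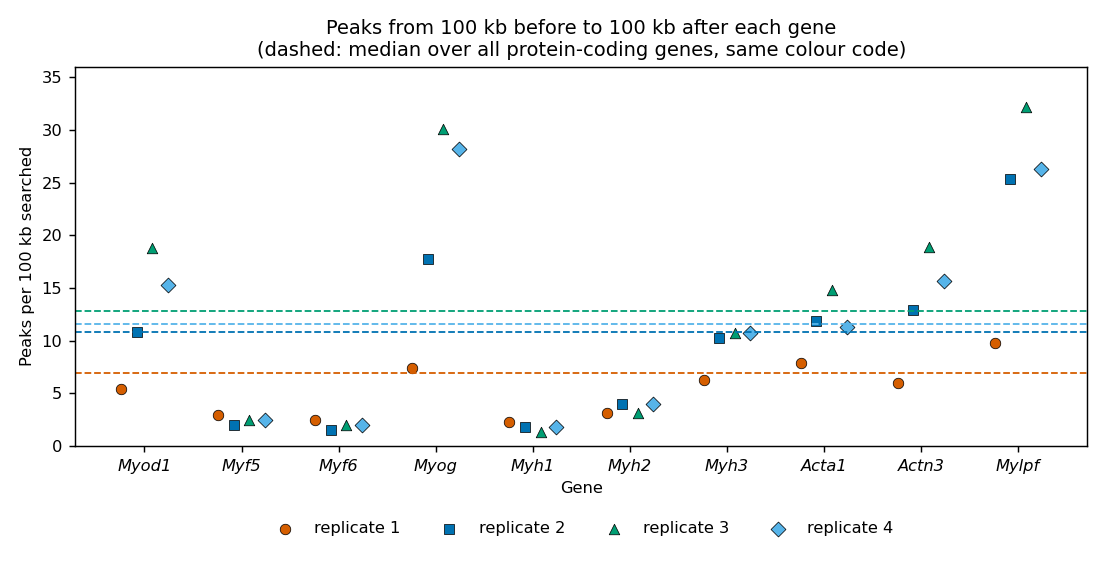
Peaks per 100 kb searched, from 100 kb before to 100 kb after each gene, 1 point per library, with dashed lines at each library's median over all protein-coding genes. Myf5, Myf6, Myh1, Myh2 and Myh3 lie below those medians in all 4 libraries, and Mylpf and Myog lie above them in all 4.

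Replicate 1 held fewer peaks than the others at some of these loci and not at others. Its count divided by the mean of replicates 2 to 4 was 0.29 at Myog, 0.35 at Mylpf, 0.36 at Myod1 and 0.38 at Actn3, and 1.29 at Myf5 and 1.36 at Myf6 and Myh1. The ratios at Myf5, Myf6 and Myh1 rest on 3 to 6 peaks per library, and Myf5 and Myf6 share most of the DNA searched. The median over genes was 0.56, with 5% of genes below 0.22 and 5% above 1.38. The part that sample handling or library quality had in this was not tested.

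Over all 10 loci there were 71 distinct regions shared by the 4 libraries. In 25 of them every library's strongest summit lay within 1 kb of a start of a protein-coding gene other than the members, while 18.7% of the 66190 shared regions of the genome had their summits within 1 kb of a protein-coding start. At Actn3 this held for 9 of 12 regions and at Mylpf for 6 of 18. At Acta1 it held for 4 of 10 and at Myog for 3 of 11. The 18.7% covers the whole genome, DNA far from genes included, and counts any gene's start. The shares are therefore not like for like. The strongest region near Myog, at 96.4 ± 2.30, was the start of Ppfia4, and that near Acta1, at 97.1 ± 0.34, was the start of Abcb10. Near Myh3 the strongest, at 98.6 ± 0.49, was the start of Tmem220.

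Distal regions, which kept over 2 kb away from the ends of protein-coding genes, numbered 34 of the 71. One of them, chr1:134330714-134333929 near Myog, is also among the 25, because its summits lie 3 to 837 bp from a start listed for Ppfia4, inside that gene's annotated span. Members had a median of 1.59 per 100 kb, against 1.95 over all genes; without replicate 1 the values were 2.72 and 3.11. Mylpf had 9 distal regions, Myog 6, Myod1 5, Acta1 5, Myh3 4, Actn3 3, Myf5 2, Myf6 1 and Myh1 and Myh2 0. The strongest near Myod1, chr7:46316719-46317421, lay 59.1 kb to its lower-coordinate side and in no protein-coding gene, at percentiles of 89.0, 80.5, 91.7 and 87.7. Near Myog it was chr1:134243403-134245937, 44.1 kb before the gene, at 83.4, 90.9, 93.9 and 93.0. Near Myf5 and Myf6 it was chr10:107467792-107468304, 14.6 kb after Myf5, at 69.1, 86.1, 79.0 and 70.8. That near Myh3 lay 78.6 kb before it (86.8 ± 5.43) and that near Acta1 82.6 kb before it, inside Abcb10 (89.8 ± 2.20). That near Actn3 lay 39.6 kb to its lower side (83.4 ± 3.67), and that near Mylpf 96.8 kb before it, inside Qprt (82.8 ± 7.02). Which gene any of these regions serves was not measured.

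Other genes of the muscle programme were examined in 6 groups of 55 genes in all. Of these, 34 had a peak at the gene start in every library, or 61.8%, against 66.9% of all genes, and in 25 of 55 each library also had a summit there. Upstream and partner factors were called at 9 of 10. These factors also act outside muscle: Mef2d ranked at 98.3 ± 0.61, Mef2a at 96.0 ± 0.95, Six4 at 91.0 ± 2.83 and Mef2c at 89.1 ± 5.24 (with a summit within 1 kb of its start in 2 libraries), while Pax3, a factor of muscle progenitors and neural crest, had a start peak in 3 libraries. Genes of myoblast fusion and the neuromuscular junction were called at 5 of 8, with the acetylcholine receptor subunit Chrnb1 at 96.9 ± 0.90, Cdh15 at 91.8 ± 3.45, the fusion protein gene Mymk at 89.7 ± 1.07 and Chrng at 80.1 ± 4.38.

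Excitation-contraction coupling genes were called at 6 of 8. Jsrp1 ranked at 94.6 ± 4.94, Stac3 at 93.9 ± 7.17, the calcium channel subunit Cacna1s at 92.5 ± 3.20 and the calcium buffer Casq1 at 89.5 ± 5.16, with a summit in the window in 2 libraries. The peaks of Jsrp1 and Cacna1s fitted a neighbour's start in all 4 libraries (Amh or Plekhj1, and Ascl5) and that of Stac3 in 3 (Ndufa4l2), and Cacng1 had no peak in any library. Fast sarcomere genes were called at 3 of 8: Tnni2 at 96.0 ± 2.99, Tnnt3 at 90.8 ± 2.70 and Mybpc2 at 89.0 ± 4.55. The peak at Tnni2 touched the start window with its summit outside it in all 4 libraries. Myh4, Myh13 and Myl1 had no start peak in any library. Slow or shared striated sarcomere genes were called at 7 of 14, led by Myl3 at 98.4 ± 0.32, Tnni1 at 93.2 ± 1.16, Actn2 at 89.7 ± 2.39 and Myh7 at 86.5 ± 6.96. Of these, Tnni1 had its summit outside the window in all 4 libraries. Mybpc1, Myot, Neb and the titin gene Ttn had none in any library. Energy and turnover genes were called at 4 of 7: Eno3 at 94.1 ± 3.97 through a peak at the start of Pfn1, Pygm at 87.0 ± 3.33, Fbxo32 at 85.9 ± 5.80 and Pvalb at 69.9 ± 12.3.

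**Figure D4:**
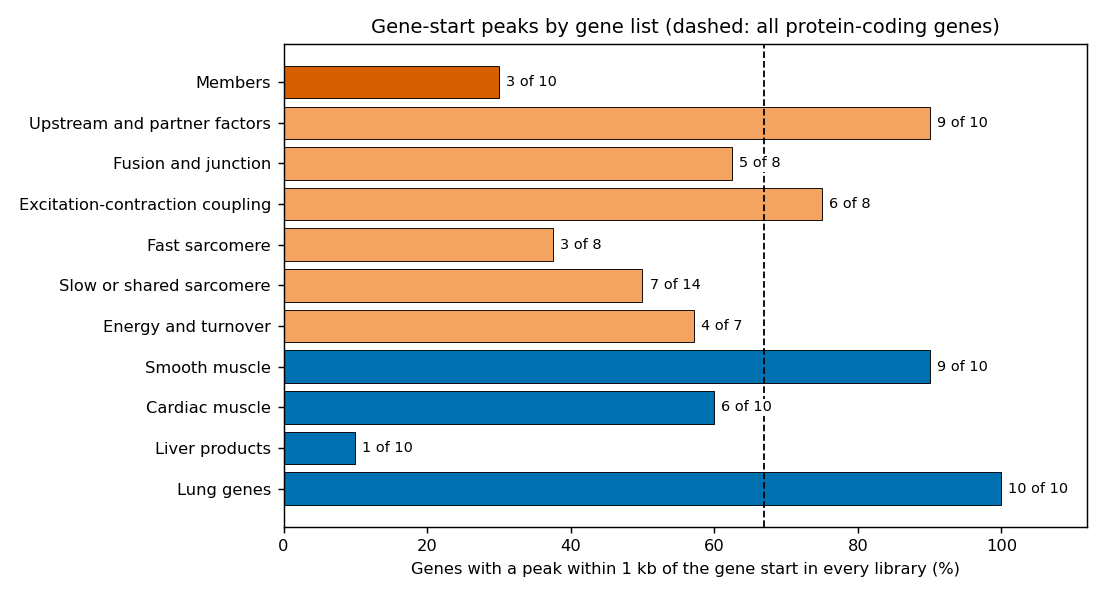
Share of each gene list with a peak within 1 kb of the gene start in every library (both ends where no strand was given), with the counts beside the bars and the share of all protein-coding genes as a dashed line. Members (3 of 10) and liver products (1 of 10) have the shortest bars, and smooth muscle (9 of 10) and lung genes (10 of 10) are among the longest.

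Contractile genes of other muscle types were set beside these by the same rule, which called 66.9% of all genes. Either end counted where no start was known, as for Myh11 and Tagln. Smooth muscle genes were called at 9 of 10, all but Mylk, with Smtn at 99.0 ± 0.84, Acta2 at 94.7 ± 1.63, Myh11 at 94.5 ± 2.61 and Tagln at 93.3 ± 0.88. The Smtn peak had its summit within 1 kb of the start in 1 library. Cardiac muscle genes were called at 6 of 10, with Myl4 at 97.7 ± 0.88, Ryr2 at 84.9 ± 7.44, Tnni3 at 74.4 ± 42.6 and Myl7 at 62.6 ± 23.1. The strongest Tnni3 peak had its summit outside the window in all 4 libraries, and that of Myl7 inside it in 3. Products of liver were called at 1 of 10, and 8 of 10 had no peak at either end in any library, against 2 of 10 members and 22.3% of all genes. No test was made between these lists, so the differences in count are descriptions.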

How the data were processed

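Per the labels, lungs of wild-type E15.5 mouse embryos were snap-frozen and 60000 nuclei tagmented for each of 4 libraries. The peak names of replicate 1 say fresh, which conflicts with this. Bowtie2 2.5.2, SAMtools 1.18, MACS3 3.0.1 and build mm10 are named in the submitters' processing notes; the parameters, duplicate removal and the Tn5 shift are not given in the sources used here. Each deposited list gives peaks of 1 library with a fold enrichment ratio, −log10 p and −log10 q at the summit, and a summit offset in bp; the deposited score is about 10 times the −log10 q. Total reads were not analysed here, so the depth behind each value is unknown, and weak peaks depend on it.

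With Python 3.11.15 and pandas 2.3.3, peaks outside the 19 autosomes and the sex chromosomes (1245 to 1814 per library) were left out, and the others ranked by fold within each library. A gene was called when every library had a peak touching 1 kb either side of its RefSeq start, or of both ends where no strand was given (4395 genes), as for the gene-end call. Overlapping or adjoining peaks were merged, and regions with peaks of all 4 libraries were called shared. A peak fitted a neighbour when its summit lay within 1 kb of another protein-coding start and nearer to it than to the gene's own. The interval code was tested on simulated data. No test of difference was run. Genes named are the 10 members, the nearest neighbours, up to 4 called genes per group by mean percentile and up to 4 without peaks in alphabetical order. The members and lists were chosen with earlier results of these data known. Alternatives were a stricter q, lists of equal length, other windows and reach, 3 of 4 libraries, summit placement, 50% overlap, and leaving out each library. The promoter CG comparison was added after the values were seen.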

Additional observations from a re-analysis of the deposited data

Results flagged for a closer look

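In 3 results 1 library, replicate 1 each time, stood apart by Dixon's ratio for 4 samples, among 24 results checked; chance gives about 1 in 20. Replicate 1 had 14 peaks within 100 kb of Myh3, against 23, 24 and 24. It placed the Myf6 peak at the 55.9th percentile, against 87.8, 90.3 and 92.2, where its fold of 10.3 was close to those of replicates 2 and 3 (10.2 and 10.3) and below that of replicate 4 (13.4). It placed the strongest distal region near Myh3 at the 78.8th percentile, against 88.8, 88.8 and 90.8. The fold of that region was higher in replicate 1, at 23.45, than in replicates 2 to 4 (11.0, 9.19 and 11.5).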

How the results depend on the processing

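No paired analysis was possible because there was 1 group. Of 200 calls of single members under alternatives, 185 did not change, 7 were lost and 8 were gained. The calls of Actn3 and Myf6 and the lack of calls at Myh1 and Myh2 held under every alternative run. With −log10 q of 5 or more, 3 members in place of 6 were called at either end, and the median distal density fell from 1.59 to 0.908 per 100 kb (all genes 1.95 and 1.32). Windows of 2.5 kb gave 6 members at the gene start in place of 3, and 3 of 4 libraries gave 5, with a density of 2.95 (all genes 3.69). A reach of 50 kb gave a density of 0.968 (all genes 1.80). Leaving out each library gave 3 to 4 members at the start, 6 at either end, 34 to 41 wider genes at the start and a density of 1.59 to 2.72. The rise to 41 genes and to 2.72 came without replicate 1. A call in every library is limited by the shortest list, that of replicate 1, and absence of a listed peak is not absence of open DNA.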
